A study of Mus musculus with 8 samples.

Results

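The genes described here are the 10 protein-coding genes of the mouse Hoxb cluster, Hoxb1, Hoxb2, Hoxb3, Hoxb4, Hoxb5, Hoxb6, Hoxb7, Hoxb8, Hoxb9 and Hoxb13, taken in their order along the chromosome. They were found by matching the RefSeq accession of every non-control probe to these symbols, which gave 11 of 55681 probes and all 10 genes of 20660 named on the array. Hoxb3 had 2 probes and every other gene had 1, and the Hoxb1 probe was spotted 10 times. Their RNA was measured on 1-colour Agilent arrays, in primary spheres, the floating clusters that dissociated ganglion cells form in culture. The source was the superior mesenteric ganglion (SMG), a sympathetic ganglion, of 3-week-old mice of the 129+Ter/SvJcl background that were hemizygous for TH-MYCN (TH-MYCN+/-). In this transgene the tyrosine hydroxylase promoter drives MYCN in sympathetic cells. All 8 samples carried it, so no sample without MYCN enters any comparison. The cells of each ganglion were divided between RA (+) medium, which holds retinoic acid (RA), and RA (-) medium, which does not. Spheres were collected after 8 days, and 4 biological replicates, called animals 1 to 4 here, gave 1 array for each medium.

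Hox genes encode homeodomain transcription factors that give cells an identity along the head-to-tail axis. They lie in 4 clusters, Hoxa to Hoxd, and members at the same place in different clusters are paralogues that share a group number. Within a cluster, genes at the 3′ end (low numbers) are switched on earlier and further forward in the embryo than genes at the 5′ end (high numbers), an arrangement called collinearity. Retinoic acid acts through nuclear receptors that bind response elements in and around the clusters, and the 3′ genes are known for an early response to it. Sympathetic neurons come from the trunk neural crest, where the Hox genes expressed differ with the level of the axis.

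From the 3′ end the genes follow each other by number, with Skap1 beside Hoxb1 and Ttll6 beside Hoxb13 in RefSeq's gene table. In that table the start of Hoxb3 lies between those of Hoxb4 and Hoxb5, since the annotated extent of Hoxb3 spans Hoxb4. RefSeq's promoter table of build GRCm38.p6 held 3 of the 10 genes. These windows run from 250 bases before to 50 bases after the annotated gene start, on the plus strand, 5′ to 3′. They are shown because they sample a 3′ gene that was not well above background in either medium, and a middle and a 5′ gene that both stood lower without RA. Capitals mark matches to the motifs named in the next paragraph. The window of Hoxb1 is chr11:96365508-96365807, that of Hoxb4 chr11:96318017-96318316 and that of Hoxb8 chr11:96281655-96281954.
Hoxb1: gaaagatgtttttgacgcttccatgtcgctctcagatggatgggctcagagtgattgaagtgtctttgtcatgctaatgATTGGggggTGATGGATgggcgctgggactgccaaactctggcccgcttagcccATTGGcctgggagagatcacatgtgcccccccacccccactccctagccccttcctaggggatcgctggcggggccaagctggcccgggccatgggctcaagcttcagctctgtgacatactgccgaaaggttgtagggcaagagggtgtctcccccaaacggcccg
Hoxb4: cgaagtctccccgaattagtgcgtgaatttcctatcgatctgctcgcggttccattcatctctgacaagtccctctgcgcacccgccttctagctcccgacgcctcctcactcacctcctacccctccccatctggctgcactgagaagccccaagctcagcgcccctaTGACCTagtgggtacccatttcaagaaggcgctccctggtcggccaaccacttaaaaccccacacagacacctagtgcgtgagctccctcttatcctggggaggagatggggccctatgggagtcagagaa
Hoxb8: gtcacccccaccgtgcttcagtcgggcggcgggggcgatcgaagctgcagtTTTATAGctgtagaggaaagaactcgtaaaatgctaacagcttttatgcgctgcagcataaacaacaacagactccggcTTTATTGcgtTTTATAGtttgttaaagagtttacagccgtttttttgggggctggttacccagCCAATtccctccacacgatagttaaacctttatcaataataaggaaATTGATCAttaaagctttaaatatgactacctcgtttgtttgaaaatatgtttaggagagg

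Both strands of the windows were searched for the retinoic acid response half-sites AGGTCA and AGTTCA, and for the direct repeats of AGGTCA with 5 or 2 bases between the copies and of AGTTCA with 5. The window of Hoxb4 held 1 half-site, AGGTCA on the minus strand, starting at base 170 counted from 1 at the window's 5′ end. Of the 32841 promoter windows in the table, 16.3% held AGGTCA, 14% held AGTTCA, and these repeats were found in that order in 0.00913%, 0.00913% and 0.0244%. None of the 3 Hoxb windows held a direct repeat, which says only that these letters are not in these 300 bases. The Hoxb1 window held 2 CCAAT boxes (CCAAT, in 37.4% of windows), both on the minus strand at bases 80 and 134. It also held the letters TGATNNAT, a site type of Hox and Pbx proteins, at base 89 (8.85% of windows). The Hoxb8 window held 1 CCAAT box at base 194, 1 match to TGATNNAT on the minus strand at base 240 and 3 matches to TTTATNG, a site type of the caudal factors (Cdx), at bases 52, 131 and 141. Such a Cdx-type match was present in 10.9% of windows. Those at bases 52 and 141 overlapped TATAAA on the minus strand, a motif found in 13.6% of windows. The letters CACGTG, the E-box that Myc proteins can bind, were in none of the 3 windows and in 7.15% of all. The GC content was 59.3% for Hoxb1, 58.0% for Hoxb4 and 42.3% for Hoxb8, where the median window had 52.7%. A match describes letters and is no measure of binding.

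Every value from here on is the log2 level of a probe relative to the 75th percentile of its own array. Levels of different probes are not set against each other, because probes differ in brightness for the same amount of RNA. A change is the RA-free level minus the RA-containing level of the same animal. The 75th percentile stood at an intensity of 228 to 306 with RA and 235 to 295 without it. The share of spots well above background, a flag set by the scanner software, was 52.7 to 55.3% and 48.5 to 55.0%. The faintest probe with that flag lay between −4.71 and −3.86 on the 8 arrays. The printed level of a probe without the flag is not a measurement. The number of arrays limits the precision. All 8 arrays shared 1 slide, where the RA-containing arrays took columns 1 and 3 and the RA-free arrays columns 2 and 4, so medium and slide column cannot be told apart.

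Along the cluster, the genes from Hoxb2 to Hoxb8 were present in RA-containing spheres and each was lower in RA-free spheres, while Hoxb1, Hoxb9 and Hoxb13 at the ends were not well above background in either medium. In the fit the change was −2.53 at Hoxb2, the most 3′ gene measured. It was −11.79 at Hoxb5 and −8.73 at Hoxb6 in the middle of the cluster, where RA-free values not well above background enter the fit. How far a probe stood above background with RA limits the fall that it can show. The mean level with RA was 5.93 for Hoxb5 and 2.83 for Hoxb6, but −0.67 for Hoxb4, −0.74 for Hoxb7 and −0.90 for Hoxb8. The sizes of these changes therefore do not rank the genes by position. Of the 10 genes, 7 passed the filter on dim probes (well above background on at least 4 of 8 arrays), and these 7 were called lower without RA and 0 higher (limma with animal as a block, adjusted p under 0.05). Over the whole array 64.3% of 13538 tested genes were called, 28.2% lower and 36.1% higher, and 3.94% were called lower by at least 2 on the log2 scale, as all of these 7 were. All 7 would have passed the filter through their RA-containing arrays alone, so the count carries no weight of its own. In bulk RNA, fewer cells that express a gene and less RNA per cell cannot be told apart.

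**Figure D1:**
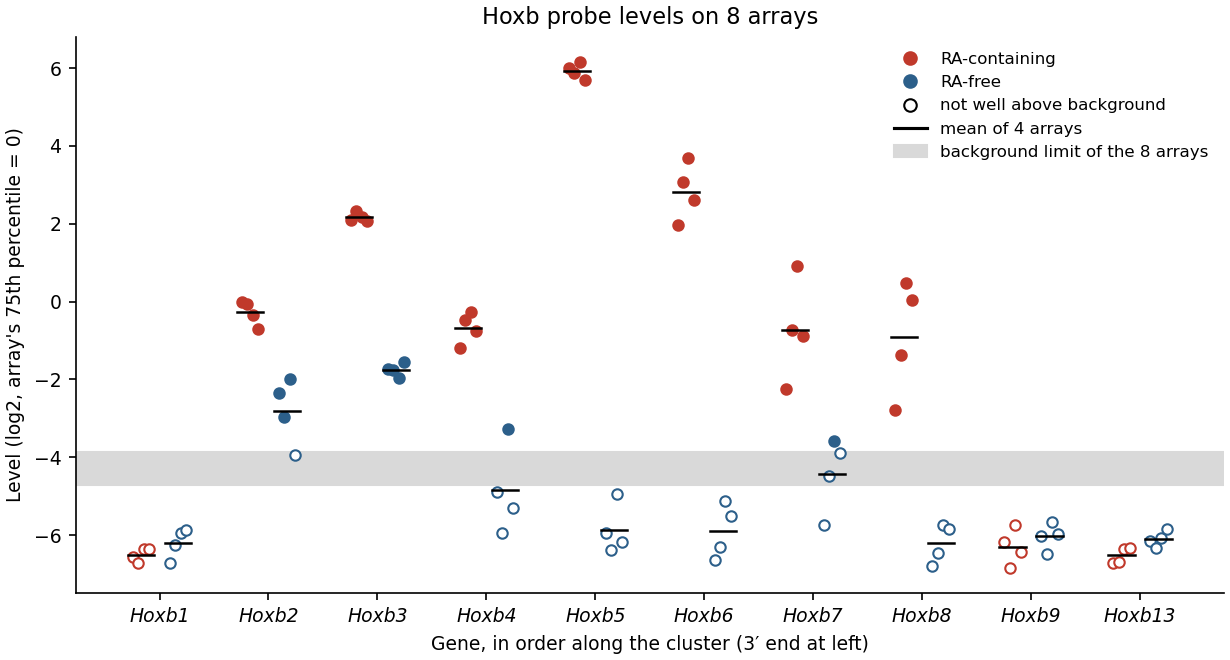
Level of each Hoxb gene's brightest probe (y axis, log2 relative to the array's 75th percentile) on 4 RA-containing and 4 RA-free arrays, with genes along the x axis in cluster order; points are arrays, bars are means, and open symbols are values not well above background. From Hoxb2 to Hoxb8 no RA-free point reaches an RA-containing one, but all RA-free points of Hoxb5, Hoxb6 and Hoxb8 are open and are not measurements. Every point of Hoxb1, Hoxb9 and Hoxb13 is open. Heights of different genes are not comparable.

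Hoxb1 sits at the 3′ end and gives a hindbrain segment its identity. Its level was −6.57, −6.71, −6.37 and −6.35 with RA and −6.71, −6.26, −5.95 and −5.87 without RA in animals 1 to 4. It was well above background on 0 of 8 arrays, so its values are not measurements and no change is given. Outlier flags struck 2 of its 10 spots on 3 arrays, and the 1 spot flagged as well above background was such an outlier there.

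Hoxb2, which acts in the hindbrain segments that form the facial motor nucleus, stood at −0.015, −0.064, −0.34 and −0.70 with RA. Without RA it stood at −2.35, −2.96, −1.99 and −3.93, and the last of these, animal 4, was not well above background. The media did not overlap, which in this direction held for 23.8% of tested genes. The change was −2.53 (SE 0.26, 95% confidence interval −3.18 to −1.88, adjusted p = 0.000567), a 5.77-fold lower level. With the faint value of animal 4 raised to that array's lowest measured level, the level was 5.70-fold lower.

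Hoxb3, whose paralogue group patterns the hindbrain and the pharyngeal arches, was well above background on all 8 arrays with its brighter probe. That probe gave 2.09, 2.32, 2.17 and 2.08 with RA and −1.72, −1.77, −1.96 and −1.54 without RA. Animals lay close together within each medium, with an SD of 0.11 with RA and 0.17 without it, and the media did not overlap. The level was 15.1-fold lower without RA, a change of −3.92 (SE 0.11, interval −4.18 to −3.65, adjusted p = 3.48e-05). The second probe was faint, at −4.00, −3.32, −2.59 and −4.22 with RA and well above background on none of the RA-free ones, and gave a bound of at least 1.63-fold lower. Both probes had the same direction, and the size rests on the brighter one.

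Both media were measured for Hoxb2 (except in animal 4) and Hoxb3, so their changes were set against each other within each animal. The change of Hoxb3 minus that of Hoxb2 was −1.48, −1.19, −2.49 and −0.39 in animals 1 to 4, with a mean of −1.39 ± 0.87 (SD, n = 4). It lay below 0 in 4 of 4 animals. An exact two-sided sign-flip permutation test gave p = 0.125, the smallest value that this test can give with 4 animals, so it cannot pass 0.05 here.

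Hoxb4, a gene of the posterior hindbrain and neck level that is known for expanding blood stem cells when overexpressed, stood at −1.19, −0.47, −0.27 and −0.76 with RA. Without RA it stood at −4.90, −5.94, −3.27 and −5.29, and animal 3 alone was well above background there. The media did not overlap. The fitted change was −4.18 (SE 0.39, adjusted p = 0.000426). With the 3 faint arrays raised to their lowest measured level the gene was 10.3-fold lower, where the fit gave 18.1-fold.

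Hoxb5, which acts in neural crest and in the enteric nervous system that arises from it, was bright with RA and not well above background without it. The levels were 6.0, 5.87, 6.15 and 5.68 with RA, or intensities of 19331, 17934, 16262 and 15373. Without RA the intensities were 4.76, 2.94, 8.43 and 3.27, none of them well above background. The RA-free level was at least 1148-fold lower. The fitted change was −11.79 (adjusted p = 1.21e-05), and this p-value does not test the bound, since RA-free values not well above background enter the fit. The 4 animals lay close together with RA, with an SD of 0.20.

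Hoxb6, a trunk-level gene expressed in lateral mesoderm and spinal cord, also went from a measured to an unmeasured level. It stood at 1.96, 3.06, 3.69 and 2.60 with RA and at −6.64, −6.31, −5.14 and −5.51 without RA, where 0 of 4 arrays were well above background. The RA-free level was at least 134-fold lower. The fitted change was −8.73 (adjusted p = 2.35e-05), a p-value of the fit and not of the bound. Its level with RA differed 3.32-fold between the lowest and the highest animal. Of all tested genes 1.41% were called lower and well above background on none of the RA-free arrays, as Hoxb5, Hoxb6 and Hoxb8 were.

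Hoxb7, known for its expression in the kidney's collecting duct, ranged widely between animals with RA. It stood at −2.26, −0.73, 0.93 and −0.89 with RA and at −5.73, −4.48, −3.59 and −3.89 without RA, where animal 3 alone was well above background. The lowest RA-containing array lay above the highest RA-free one. The fitted change was −3.68 (SE 0.24, adjusted p = 0.000149). With the 3 faint arrays raised to their lowest measured level the gene was 10.4-fold lower, where the fit gave 12.9-fold.

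Hoxb8, whose protein acts in spinal cord and in myeloid cells, was the most 5′ gene measured. Its level was −2.78, −1.36, 0.48 and 0.039 with RA and −6.79, −6.46, −5.74 and −5.84 without RA, where no array was well above background. The lowest RA-containing array, animal 1, lay above the faintest level measured well above background on the RA-free arrays (−4.65 to −3.86). The RA-free level was at least 10.1-fold lower. The fitted change was −5.30 (adjusted p = 0.000165), a p-value of the fit and not of the bound.

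Hoxb9, a thoracic-level gene, and Hoxb13, a tail-end gene, were well above background on 0 of 8 arrays. Hoxb9 lay between −6.83 and −5.67 and Hoxb13 between −6.71 and −5.86 over all 8 arrays, and no fold is given for either. Hoxb8 was thus the last gene from the 3′ end whose probe was well above background.

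Under normexp background correction with quantile normalization, which lifts faint values, the changes were −1.46 for Hoxb2, −1.70 for Hoxb4, −4.80 for Hoxb6, −1.48 for Hoxb7 and −1.82 for Hoxb8, each smaller by over 1.5 times. Those of Hoxb5 (−8.32), Hoxb6 and Hoxb8 were then smaller than the bounds above. All 7 genes were called lower in that fit too.

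**Figure D2:**
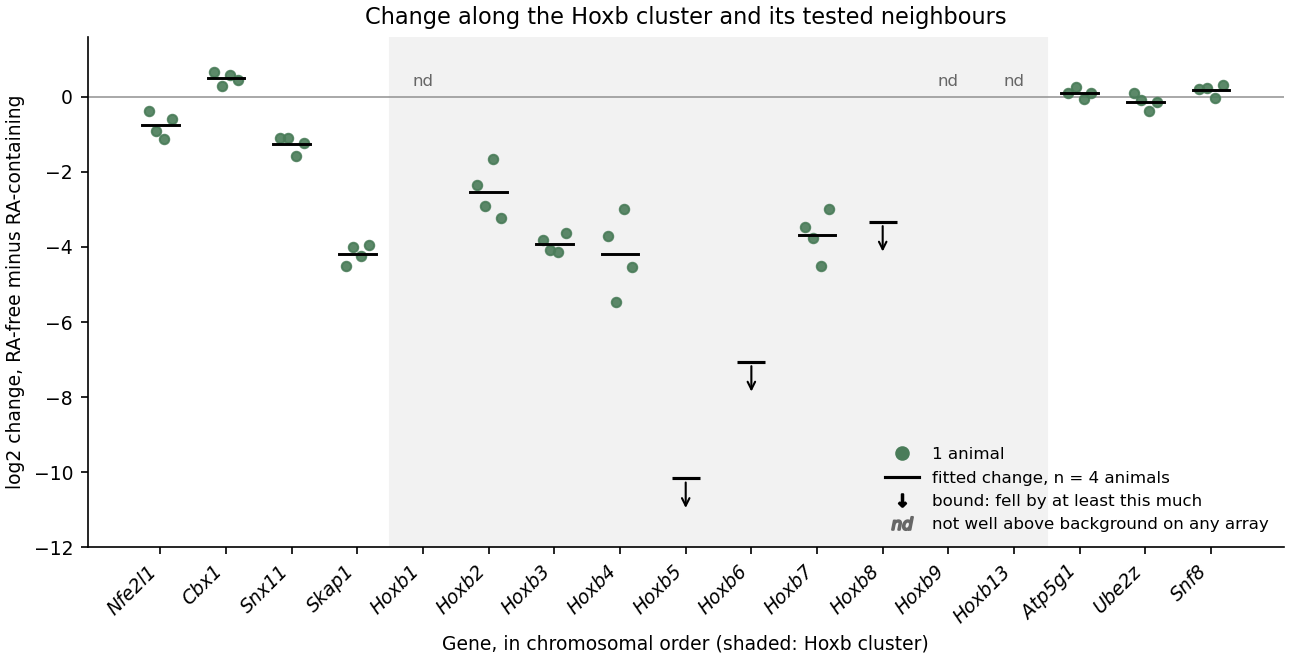
Change of each Hoxb gene and of the tested genes on either side (y axis, log2, RA-free minus RA-containing), in chromosomal order along the x axis with the cluster shaded; points are 4 animals, bars are fitted changes, arrows are bounds for genes that no RA-free array measured well above background, and nd marks genes that no array did. The lowest bars are the bounds of Hoxb5 and Hoxb6 in the middle of the cluster, and Skap1 outside its 3′ end lies at −4.17. The probes of Hoxb4, Hoxb7 and Hoxb8 were fainter with RA than those of Hoxb5 and Hoxb6 and had less room to fall.

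By the brightest probe of each gene, the animals differed more in the genes toward the 5′ end of the measured stretch. With RA, the SD over the 4 animals was 0.31 for Hoxb2, 0.11 for Hoxb3, 0.40 for Hoxb4, 0.20 for Hoxb5, 0.73 for Hoxb6, 1.30 for Hoxb7 and 1.48 for Hoxb8, where the median gene had 0.149. The last 3 exceeded the SD of 99.0%, 99.7% and 99.8% of tested genes, while Hoxb3 exceeded that of 29.4%. Hoxb7 and Hoxb8 spanned 9.08-fold and 9.58-fold between animals, and Hoxb3 1.18-fold. The fainter Hoxb3 probe, well above background on all 4 RA-containing arrays, had an SD of 0.74 there and ranged over 1.63 on the log2 scale. Animal 1 was lowest and animal 3 highest for Hoxb4, Hoxb6, Hoxb7 and Hoxb8, an order that 10.2% of all tested genes had. The paralogues Hoxa5 and Hoxa7 had that order too, with spans of 6.84-fold and 38.9-fold. Hoxa6 spanned 5.64-fold with animal 3 highest but animal 2 lowest. Hoxc4, Hoxc5, Hoxc6, Hoxc8, Hoxd3, Hoxd4 and Hoxd8 did not have the order, and they spanned 1.28-fold to 2.09-fold. Among the cell type lists, animal 3 had the highest mean level of fibroblast markers with RA (−0.39, against −1.09 to −0.73 in the others). The same held for immune markers (−0.13, against −0.79 to −0.43) and endothelial markers (−0.83, against −1.21 to −0.94). Animal 2 was lowest in each of these lists. The remaining lists had other orders. Glial markers were lowest in animal 3 (−0.68, against −0.65 to −0.56), and sympathoadrenal markers (4.33) and adrenal cortex markers (−2.56) were highest in animal 1. The part of these cell types in the Hoxb differences was not tested.

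**Figure D3:**
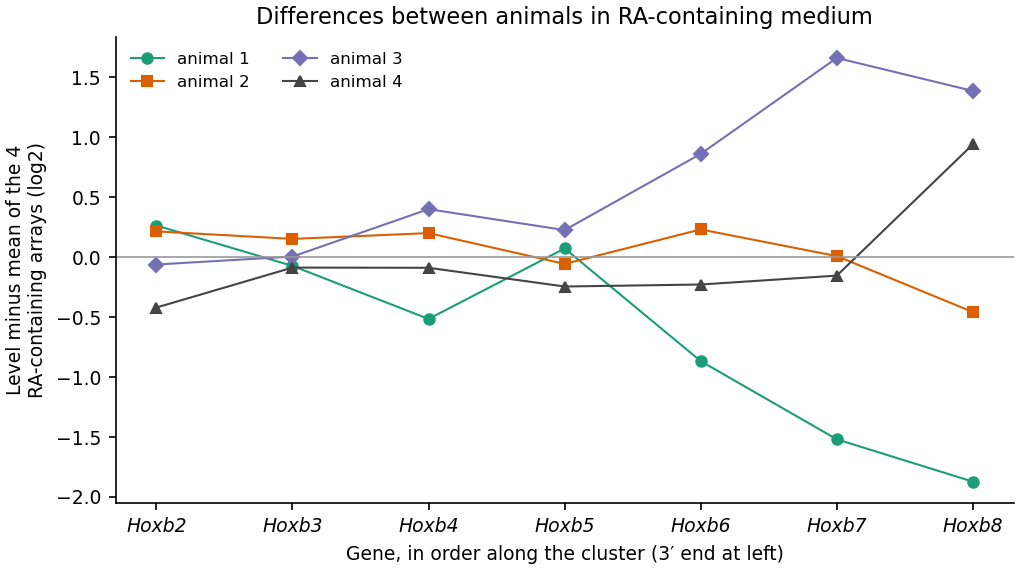
Deviation of each animal from the mean of the 4 RA-containing arrays (y axis, log2) for the 7 tested Hoxb genes in cluster order (x axis); each line is 1 animal. The lines span −0.42 to 0.26 at Hoxb2 and −1.87 to 1.39 at Hoxb8, where animal 1 is lowest and animal 3 highest.

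The genes flanking the cluster moved in different directions. Of 12 listed neighbours 10 were on the array and 7 were tested, of which 3 were called lower and 1 higher, where 28.2% and 36.1% of all tested genes were. Their median change was −0.13, beside 0.07 for all tested genes. Skap1, an adaptor protein of T cell signalling, stood at 3.28, 3.41, 3.65 and 3.43 with RA and at −1.24, −0.58, −0.59 and −0.53 without it. All 8 arrays measured it well above background, and the media did not overlap. Its change was −4.17 (SE 0.11, adjusted p = 3.38e-05), or 18.1-fold lower, and ranged from −4.29 to −3.86 over 4 other scalings. Snx11, a sorting nexin, had a change of −1.25 (SE 0.11, adjusted p = 0.000321), and its other probes had mean changes of −1.41 and −1.47. Nfe2l1, a transcription factor of proteasome genes, had a change of −0.76 (SE 0.14, adjusted p = 0.00437), a call lost with spike-in scaling (−0.60, adjusted p = 0.0628), and of −0.37 under normexp with quantile normalization. Cbx1, a heterochromatin protein, was higher, with a change of 0.50 (SE 0.09, adjusted p = 0.00440), or 0.24 under normexp with quantile normalization.

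On the Hoxb13 side the tested neighbours gave no call. The changes were 0.10 for Atp5g1, an ATP synthase subunit (adjusted p = 0.312), −0.13 for Ube2z, a ubiquitin-conjugating enzyme (adjusted p = 0.267), and 0.18 for Snf8, a subunit of an endosomal sorting complex (adjusted p = 0.112). Their signs depended on the scaling. Atp5g1 had a change of −0.34 and was called lower under quantile normalization, with normexp and without it. Ube2z was called lower with normexp (−0.24) and had 0.025 with spike-in scaling, and Snf8 had −0.16 and −0.12 under those quantile scalings without a call. Ttll6, Gip and Igf2bp1 were well above background on none of the arrays. Of the listed non-coding genes inside the cluster, Hoxb3os, Hoxb5os, Mir10a and Mir196a-1, 0 of 4 matched a probe. Gm53, an unlisted non-coding gene between Hoxb9 and Hoxb13, had 1 probe, which was well above background on 0 of 8 arrays.

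The paralogues in the other clusters are the nearest comparison for each Hoxb gene, and differences between clusters were not tested. Of 11 Hoxa genes on the array 4 were tested and 2 were called lower, with a median change of −0.77. Of 9 Hoxc genes 5 were tested and 4 were called lower (median −0.79), and of 9 Hoxd genes 4 were tested and 2 were called lower (median −0.59). Of these 13 genes 0 were called higher. Over the whole array 28.2% were called lower and 36.1% higher, with a median change of 0.07. Hoxa5, of the same group as Hoxb5, stood at −2.48, −0.92, 0.29 and −0.062 with RA and at −6.96, −5.72, −2.72 and −4.66 without it, where animal 3 alone was well above background. Its fitted change was −4.22 (SE 0.30, adjusted p = 0.000190), or −1.72 under normexp with quantile normalization, and with the faint arrays raised to their lowest measured level it was 8.59-fold lower. Hoxc5, measured on all 8 arrays, had a change of −1.36 (SE 0.18, adjusted p = 0.00143).

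The other paralogues had smaller changes. Hoxc8 changed by −1.36 (SE 0.07, adjusted p = 0.000102), Hoxa7 by −1.05 (SE 0.29, adjusted p = 0.0216, or −0.60 under normexp with quantile normalization), Hoxd3 by −0.80 (SE 0.14, adjusted p = 0.00418, or −0.50 under the same normalization) and Hoxc6 by −0.79 (SE 0.12, adjusted p = 0.00237). Hoxa6 (−0.49, adjusted p = 0.154, or −0.10 under normexp with quantile normalization) and Hoxd8 (−0.16, adjusted p = 0.375, and 0.0012 with spike-in scaling) were not called. Of group 4, Hoxc4 had a change of −0.18 (adjusted p = 0.141) and Hoxd4 of −0.38 (adjusted p = 0.0586), and 3 of 4 other scalings called each of them lower. Hoxc9 (−0.67, a call lost with spike-in scaling) and Hoxd9 (−0.80) complete the calls and were named after their values were seen. Of group 2, Hoxa2 was well above background on 0 of 8 arrays, so Hoxb2 has no tested paralogue.

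**Figure D4:**
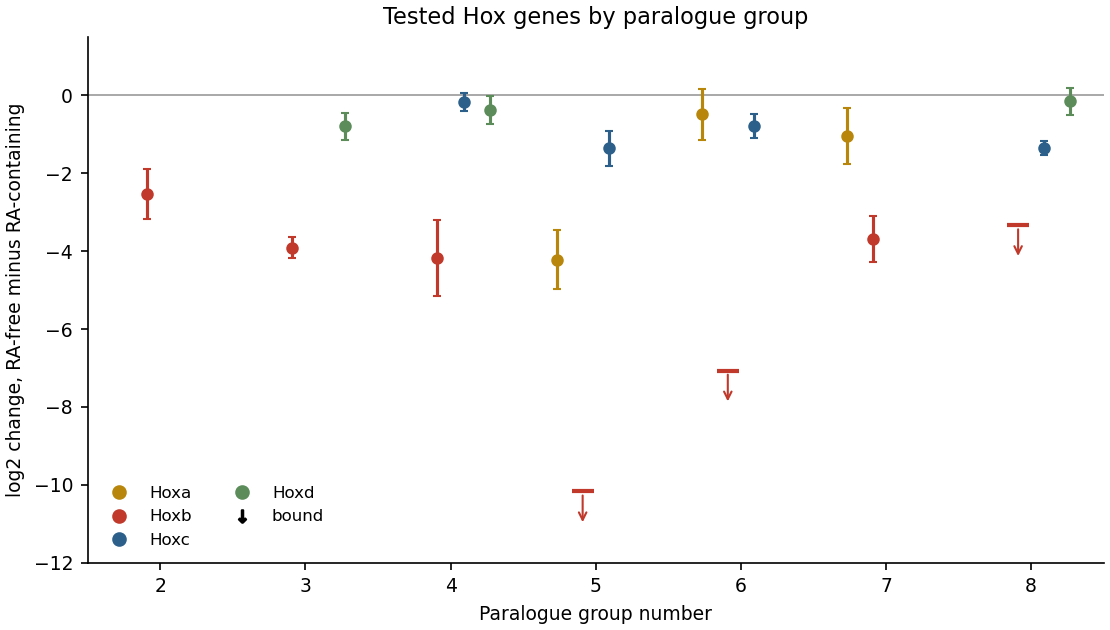
Change of each tested Hox gene of groups 2 to 8 (y axis, log2, RA-free minus RA-containing) against paralogue group (x axis), coloured by cluster; points are fitted changes, bars their 95% confidence intervals, and arrows mark bounds. The Hoxb genes lie at −2.53 or lower, Hoxa5 at −4.22, and the Hoxc and Hoxd genes between −1.36 and −0.16.

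Hox proteins bind DNA together with cofactors of the Pbx and Meis families, and all 9 listed cofactor genes were tested, of which 2 were called lower and 5 higher, where 64.3% of all tested genes were called one way or the other. Pbx3 fell from 2.49 ± 0.10 to −0.16 ± 0.15 (SD, n = 4), a change of −2.65 (SE 0.07, adjusted p = 2.76e-05). Meis2 stood at −5.49, −2.30, −0.99 and −1.97 with RA, where animal 1 was not well above background, and at −1.37, −0.23, 0.72 and 1.28 without it. It was higher without RA in every animal, though the media overlapped, with a change of 2.78 (SE 0.41, adjusted p = 0.00200), or 1.51 under normexp with quantile normalization. The other calls were named after their values were seen. Meis3 was lower (−0.83), and Meis1 (0.40), Pbx2 (0.34), Pknox1 (0.82) and Pknox2 (0.57) were higher. Pknox2 had 0.31 under normexp with quantile normalization. The call of Meis1 was lost under 3 of 4 other scalings and that of Pbx2 under 2.

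Of 12 listed regulators of Hoxb genes, all on the array, 8 were tested, with 5 called lower and 1 higher, beside 28.2% and 36.1% of all tested genes. Rarb, the retinoic acid receptor beta and itself a target of retinoic acid, had a change of −1.77 (SE 0.09, adjusted p = 8.31e-05). Of the other calls, named after their values were seen, Rara (−0.77), Rarg (−0.68) and Rxrg (−0.29) were lower, each lost with spike-in scaling, and Gdf11 was higher (0.45), lost under 3 of 4 other scalings. Second probes of Rara and Rxrg, well above background on all 8 arrays, had mean changes of −0.049 and 0.22, so the probes of Rara differ in size and those of Rxrg in direction. Under normexp with quantile normalization Rarg had −0.20 and Gdf11 0.17. Cdx2 and Cdx4, caudal factors that act on 5′ Hox genes, were well above background on 0 of 8 arrays, and Cdx1 was so on 1 RA-free array.

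The spheres were checked against marker lists, whose counts stand beside 28.2% of all tested genes called lower and 36.1% higher. All 13 sympathoadrenal genes were tested, with mean list levels of 4.02 to 4.33 with RA and 4.58 to 4.77 without it, and 4 were called lower and 5 higher. Th, tyrosine hydroxylase, rose by 3.59 and Dbh, dopamine beta-hydroxylase, fell by 1.53. Immune markers had 3 of 5 tested members called lower and 0 higher, with list levels of −0.79 to −0.13 with RA and −1.73 to −1.39 without it, and Ptprc and Cd14 were well above background on none of the arrays. Itgam, the brightest of them, had a change of −0.51, a call lost with spike-in scaling. Aif1 and Adgre1, macrophage markers named after their values were seen, were well above background on all 4 RA-containing arrays and on 0 of 4 RA-free ones. They were at least 1.43-fold and 1.39-fold lower, and were called lower under all 4 other scalings. The 2 tested immune members without a call were Csf1r, also a macrophage marker (0.023, adjusted p = 0.893), and Cd3e (−0.074, adjusted p = 0.699).

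Fibroblast markers had 4 of 7 tested members called lower and 1 higher, with list levels of −1.09 to −0.39 with RA and −1.68 to −1.18 without it, and Pdgfra and Lum well above background on none of the arrays. Glial markers had 3 of 9 lower and 1 higher, at −0.68 to −0.56 and −1.09 to −0.88, with Erbb3 not well above background. Endothelial markers had 1 of 4 lower and 0 higher, at −1.21 to −0.83 and −1.17 to −0.84, with Cdh5, Tek and Emcn not well above background. Adrenal cortex markers had 0 of 3 lower and 1 higher, at −2.98 to −2.56 and −2.51 to −2.26, with Cyp11a1 and Cyp11b1 not well above background. The printed list levels of immune, fibroblast and glial markers thus moved in the direction of the Hoxb genes, and the part of these cells in the Hoxb changes was not tested. The RA-free immune levels include values of Aif1 and Adgre1 that are not measurements, so the size of the immune step is not known. These 2 genes had fitted changes of −2.58 and −2.26, but −0.41 and −0.31 under normexp with quantile normalization.

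Likeness was measured for Hoxb3, picked because its probe had the highest mean brightness over the 8 arrays, which does not rank the genes by RNA. Among 13454 genes outside the lists, the highest Pearson correlations of level over 8 arrays were with Cda, a cytidine deaminase (r = 0.9990), Slc44a5 (0.9987), Nhsl2 (0.9983), Nrep (0.9981) and Frmpd4 (0.9979). The arrays form 2 groups by medium, so these values mostly repeat the step between media, and 147 genes had r above 0.99. After the mean of each medium was removed, the correlations were 0.83, 0.61, 0.70, 0.66 and 0.30 in that order. The log2 changes of these genes were −2.65, −4.16, −7.11, −1.86 and −7.06, so genes with nearly the same r differed in the size of the step.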

How the data were processed

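Per the labels' protocols, the RNA had an integrity number above 8 and its input for Cy3 labelling was 40 or 200 ng, with no word on which array had which. The authors scanned, per the file headers, 8 arrays of design 028005, annotated on mm9, with Feature Extraction 11.5.1.1, which gave the deposited intensity of each spot, background-subtracted within its array and not scaled between arrays. The authors also deposited log2 values centred on each probe's mean over the arrays. Set against the scanner values the lowest correlation was 0.9999, and the exact scaling of this table is unknown. Its column medians were −0.23, −0.22, 0.02 and −0.01 for RA-containing animals 1 to 4 and −0.07, 0.01, 0.17 and 0.20 for RA-free ones.

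Here, outlier spots were left out, intensities were taken to log2, the 75th percentile of the array's non-control spots was subtracted, and spots of 1 probe were averaged. No non-control spot was saturated. Probes were named through their accession in a RefSeq table of GRCm38.p6, which matched 27235 probes to 1 symbol and left 28446 unnamed. The array annotation rests on another build, so only names and the order of genes were taken from it. Probes well above background on at least 4 of 8 arrays were tested, with the brightest probe for each of 13538 genes. limma 3.58.1 in R 4.3.3 fitted RA-free minus RA-containing with animal as a block, with p-values adjusted by Benjamini-Hochberg over the 13538 genes and a threshold of 0.05. The fit was tested on simulated data. The pairing comes from the series' design, where 1 ganglion is divided between both media, and the deviations of same-numbered arrays from their medium's mean correlated at 0.52, 0.30, 0.19 and 0.33. A bound takes, on each RA-free array, the higher of the probe's level and the lowest level of a probe well above background there.

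The Hoxb genes, lists and tests were chosen with earlier results of these data known. All Hoxb genes and listed neighbours are named, other Hox genes of the groups of tested Hoxb genes, cofactors and regulators called with a change of at least 1 in size, the brightest cell type markers, and for likeness the 5 genes with the highest correlation. Alternatives were other scalings, filters, probe rules, the authors' table, no block, each animal left out, and, chosen after seeing the data, each row of the slide. The mean spot signal planned for normexp (offset 50) is not used here, and the median spot signal took its place. Some members of the gene lists are counted but not reported here by name.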

Additional observations from a re-analysis of the deposited data

Results flagged for a closer look

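Of 41 groups of 4 arrays checked, 1 held an array far from the others: Skap1 stood at −1.24 on the RA-free array of animal 1, with a gap to the nearest other array of 0.91 of the group's range, above Dixon's 95% critical value for 4 samples. The other 3 RA-free arrays lay at −0.59 to −0.53. Chance alone flags about 5% of groups. With or without that array the RA-free levels of Skap1 lay far under its lowest RA-containing level of 3.28.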

How the results depend on the processing

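Across 15 alternatives the count of Hoxb genes called lower was 7 in each, and each of Hoxb2 to Hoxb8 kept its call and direction. The count called higher was 0 in each but the fit with no filter on dim probes, where it was 1, Hoxb13 (0.42, adjusted p = 0.0161), a probe that no array measured well above background. The changes ranged from −2.82 to −1.46 for Hoxb2, −4.03 to −3.14 for Hoxb3, −4.59 to −1.70 for Hoxb4, −12.15 to −8.32 for Hoxb5, −8.98 to −4.80 for Hoxb6, −3.91 to −1.48 for Hoxb7 and −6.05 to −1.82 for Hoxb8, with the smallest under normexp with quantile normalization. Over the whole array 8705 genes were called, and 5212 with spike-in scaling. Its 8 probes moved the median change of all genes from 0.07 to 0.23, and the 75th percentile of detected probes gave −0.04. In limma with spike-in scaling Hoxb4 and Skap1, both at −4.02, had adjusted p = 1.68e-48 and 1.71e-48, although their main SEs were 0.39 and 0.11. That fit thus gave these genes nearly the same variance, and a call lost there need not come from the shift in level alone. In the main fit the calls were 3820 lower and 4885 higher. They were 1931 and 3281 with spike-in scaling and 4370 and 4206 under normexp with quantile normalization. Quantile normalization gave 4305 and 4115, and the percentile of detected probes 4596 and 3965. Without the replicate block 8022 genes were called, and the pairing changed no Hoxb call. Leaving out 1 animal gave 7350 to 8245 genes, 7 Hoxb genes lower and 0 higher. On the first row of the slide (animals 1 and 2) Hoxb8 changed by −4.56 and on the second (animals 3 and 4) by −6.05. A slide block was not run, since there was 1 slide. Signal over background limits the size of the changes of Hoxb4 to Hoxb8, whose RA-free levels were mostly or wholly not well above background.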
